A study of Arabidopsis thaliana with 12 samples.

Results

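Flavonoid and anthocyanin synthesis was followed through 10 genes of Arabidopsis seedlings, chosen by gene identifier from the 37336 genes counted in every library. They were the early enzymes *CHS*, *CHI*, *F3H* and *F3'H*, the flavonol synthase *FLS1*, the late anthocyanin enzymes *DFR*, *LDOX* and *UGT75C1*, and the MYB regulators *PAP1* and *MYB12*. RNA-Seq read counts were available for 4 groups of 4-day-old whole seedlings in the Col-0 background, with 3 libraries (replicates A, B and C) in each. WT 29 °C seedlings are wild-type plants that the study's methods describe as grown at 23 °C and then moved to 29 °C for 6 h. *35S:APOLO* seedlings at 23 °C over-express the lncRNA *APOLO* constitutively from the 35S promoter, in all tissues where that promoter acts, and come from a single line. *vim1-3* seedlings at 23 °C carry a single T-DNA insertion allele that lowers *VIM1*, which encodes a methylcytosine-binding protein. WT 23 °C seedlings are the common control. The 3 comparisons with WT 23 °C ask how warmth, *APOLO* over-expression and loss of *VIM1* relate to the transcript levels of this pathway, and they share the same 3 control libraries.

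Flavonoids are made from phenylalanine. The general phenylpropanoid enzymes turn it into coumaroyl-CoA, and chalcone synthase (*CHS*), chalcone isomerase (*CHI*) and flavanone 3-hydroxylase (*F3H*) convert this to dihydroflavonols, with flavonoid 3'-hydroxylase (*F3'H*) adding a hydroxyl group. Flavonol synthase (*FLS1*) then draws dihydroflavonols to the flavonols, which absorb ultraviolet light and modulate auxin transport in seedlings, whereas dihydroflavonol reductase (*DFR*), anthocyanidin synthase (*LDOX*) and glucosyltransferases such as *UGT75C1* lead to the red anthocyanins. MYB12 and its relatives activate the early genes and *FLS1* without a bHLH partner, and PAP1 activates the late genes together with bHLH and WD40 partners.

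All members are annotated in RefSeq as protein-coding genes on TAIR10.1. *CHS* (AT5G13930) lies on chromosome 5 from 4488476 to 4490264, *F3'H* (AT5G07990) from 2560328 to 2563137 and *FLS1* (AT5G08640) from 2803833 to 2805606 on the same chromosome, all on the plus strand. *DFR* (AT5G42800) is on chromosome 5 from 17164093 to 17166032 on the minus strand. *CHI* (AT3G55120) occupies chromosome 3 from 20430059 to 20431597 on the minus strand, and *F3H* (AT3G51240) the same chromosome from 19025192 to 19026872 on the plus strand. *LDOX* (AT4G22880, 12004726 to 12006209) and *UGT75C1* (AT4G14090, 8122188 to 8123835) are on chromosome 4, both on the minus strand. *PAP1* (AT1G56650) lies on chromosome 1 from 21233555 to 21235292 on the minus strand and *MYB12* (AT2G47460) on chromosome 2 from 19476326 to 19479597 on the plus strand. In the annotation 1415 of the 1508 exon bases of *F3H* overlap AT3G51238 on the other strand, which held at most 1 read in any library. *UGT75C1* shares 447 of its 1648 exon bases with opposite-strand genes, of which AT4G14100 held between 127 and 473 reads per library. Since the strand setting of the counting is not stated, reads of *UGT75C1* and AT4G14100 in the shared bases cannot be told apart. Of the 75-base exon stretches of *LDOX*, 2.16% also occur elsewhere in the genome, and those of the other members occur nowhere else.

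Stretches of 250 bases directly before the annotated start were read from the TAIR10.1 genome of RefSeq for all members. They are shown for the genes on which the results turn, namely *CHS*, *FLS1*, *MYB12* and *DFR*, 5' to 3' on the strand of the gene. Capitals mark 2 kinds of motif. The G-box, CACGTG, can be bound by bZIP factors such as HY5 and by bHLH factors such as PIF4. The box GAAGAA, which the study connects with recognition by *APOLO*, was searched on both strands and can therefore appear as its reverse complement.
CHS (chr5:4488226-4488475, plus strand): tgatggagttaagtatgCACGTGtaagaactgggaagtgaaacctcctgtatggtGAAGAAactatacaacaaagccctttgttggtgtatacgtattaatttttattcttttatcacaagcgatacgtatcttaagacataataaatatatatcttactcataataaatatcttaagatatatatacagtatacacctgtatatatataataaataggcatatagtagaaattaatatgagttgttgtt
FLS1 (chr5:2803583-2803832, plus strand): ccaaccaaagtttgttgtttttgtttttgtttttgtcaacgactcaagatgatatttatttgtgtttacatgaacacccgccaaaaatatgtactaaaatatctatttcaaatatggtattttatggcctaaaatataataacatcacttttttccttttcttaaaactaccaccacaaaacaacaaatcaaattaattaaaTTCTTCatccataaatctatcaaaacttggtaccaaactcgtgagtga
MYB12 (chr2:19476076-19476325, plus strand): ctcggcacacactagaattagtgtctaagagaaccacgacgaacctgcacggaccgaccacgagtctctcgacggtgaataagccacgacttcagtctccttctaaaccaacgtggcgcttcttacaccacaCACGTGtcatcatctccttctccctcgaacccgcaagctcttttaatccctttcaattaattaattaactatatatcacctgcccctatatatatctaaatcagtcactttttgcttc
DFR (chr5:17166033-17166282, minus strand): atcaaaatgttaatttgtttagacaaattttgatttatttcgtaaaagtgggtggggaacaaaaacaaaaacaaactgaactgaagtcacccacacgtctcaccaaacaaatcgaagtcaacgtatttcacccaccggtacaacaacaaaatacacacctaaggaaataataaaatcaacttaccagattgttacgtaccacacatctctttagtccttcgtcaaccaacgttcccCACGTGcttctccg

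A G-box was found in 4 of the 10 upstream stretches, those of *CHS*, *F3H*, *DFR* and *MYB12*, and in 6.49% of the 27443 stretches of equal length before annotated genes. Its first base lies 233 bases before the start of *CHS*, 249 before *F3H*, 14 before *DFR* and 118 before *MYB12*. The GAAGAA box was found before 2 members, *CHS* (195 bases before the start) and *FLS1* (48 bases, as its reverse complement), and in 30.5% of all stretches. The AC-rich elements recognised by MYB factors were searched as well, and all motifs on both strands. ACCTACC and ACCTAAC occurred before none of the members and in 1.16% and 2.46% of all stretches, and ACCAACC occurred before *UGT75C1* (243 bases) and in 2.69% of all stretches. These matches describe the letters of the sequence and are not measurements of binding.

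Between 8824476 and 22925019 reads were counted on genes per library, and the 3 counts taken as the smallest readable level equal 0.127 to 0.360 CPM (reads of a gene scaled to the size of its library, with the TMM factors of edgeR). Poisson intervals of CPM levels, and the floors, cover counting error only. Intervals of log2 fold changes come from the edgeR fit instead. Shoot tissue was plainly present, with 37775 to 58707 CPM summed over 6 photosynthesis genes. The targeted genes were examined next. *VIM1* had 5, 3 and 1 reads in *vim1-3*, against 147, 68 and 56 in WT 23 °C. *APOLO* had 4984, 8949 and 11720 reads in *35S:APOLO*, against 1197, 2 and 1 in WT 23 °C, so that the library labelled WT 23 °C A holds *APOLO* reads that its label does not lead to. The WT 23 °C libraries also stood apart from each other. Summed over 7 root genes they held 414, 71.2 and 191 CPM, against 475 to 996 CPM in the other libraries, and *PLT1*, a root stem cell gene, had 23, 1 and 0 reads. In CPM the largest differences within the sum were those of *TIP2;2* (229, 12.4 and 88.8) and *TIP2;3* (90.3, 1.87 and 25.9). *SHR* (9.49, 11.7 and 9.01 CPM) and *SCR* (34.7, 33.0 and 35.6 CPM), of the same list, did not follow the order of the sum. Summed over 6 genes of the jasmonate response, WT 23 °C held 47.9, 464 and 333 CPM and the other libraries 6.30 to 15.2 CPM. Most of the WT 23 °C sums came from *NATA1* (13.5, 228 and 155 CPM) and *LOX2* (24.8, 205 and 153 CPM). *VSP1* went the other way in WT 29 °C, with 1.77, 1.70 and 2.76 CPM in WT 23 °C against 3.62, 5.04 and 3.09 CPM in WT 29 °C. It had 3.46, 2.33 and 5.06 CPM in *35S:APOLO*, and 0.980, 1.27 and 1.44 CPM in *vim1-3*, below every control library. *TAT3* was highest in *vim1-3* B (7.79 CPM). Levels of the members are therefore given for each library.

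Of the 10 members, 6 had enough reads to be tested, and *DFR*, *LDOX*, *UGT75C1* and *PAP1* did not. Testing used edgeR's quasi-likelihood F-test in a single fit of 12 libraries over 20664 genes, with p-values adjusted by the Benjamini-Hochberg (BH) method and a threshold of 0.01. Only 1 member passed in any of the 6 comparisons: *FLS1* rose in *35S:APOLO* against WT 23 °C. In that comparison 1 of 6 tested members was called higher and 0 lower, where 2.6% of all tested genes were called higher and 7.68% lower. For WT 29 °C against WT 23 °C, 0 of 6 were called in edgeR, with 7.88% of all tested genes higher and 12.8% lower. Here *CHS* and *MYB12* had an unadjusted p below 0.05. DESeq2 with 12 libraries called 3 members (*CHS*, *UGT75C1* and *PAP1*) and 24.2% of all genes, and gave *DFR* and *LDOX* no adjusted p. The calls of *UGT75C1* and *PAP1* rest on reads in the control and are read as no result. In *vim1-3* against WT 23 °C, edgeR called 0 of 6, with 2.19% of all tested genes higher and 4.45% lower. *CHI*, *FLS1* and *MYB12* had an unadjusted p below 0.05 there, and DESeq2 with 12 libraries called 1 member, *PAP1*, and 13.2% of all genes. This call of *PAP1* is again read as no result. The median log2 fold change of the 6 tested members was 0.15 in WT 29 °C, 0.56 in *35S:APOLO* and 0.15 in *vim1-3*, beside medians of -0.01, -0.03 and -0.04 over all tested genes. In bulk RNA of whole seedlings, fewer cells of a type and less RNA per cell cannot be told apart.

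**Figure D1:**
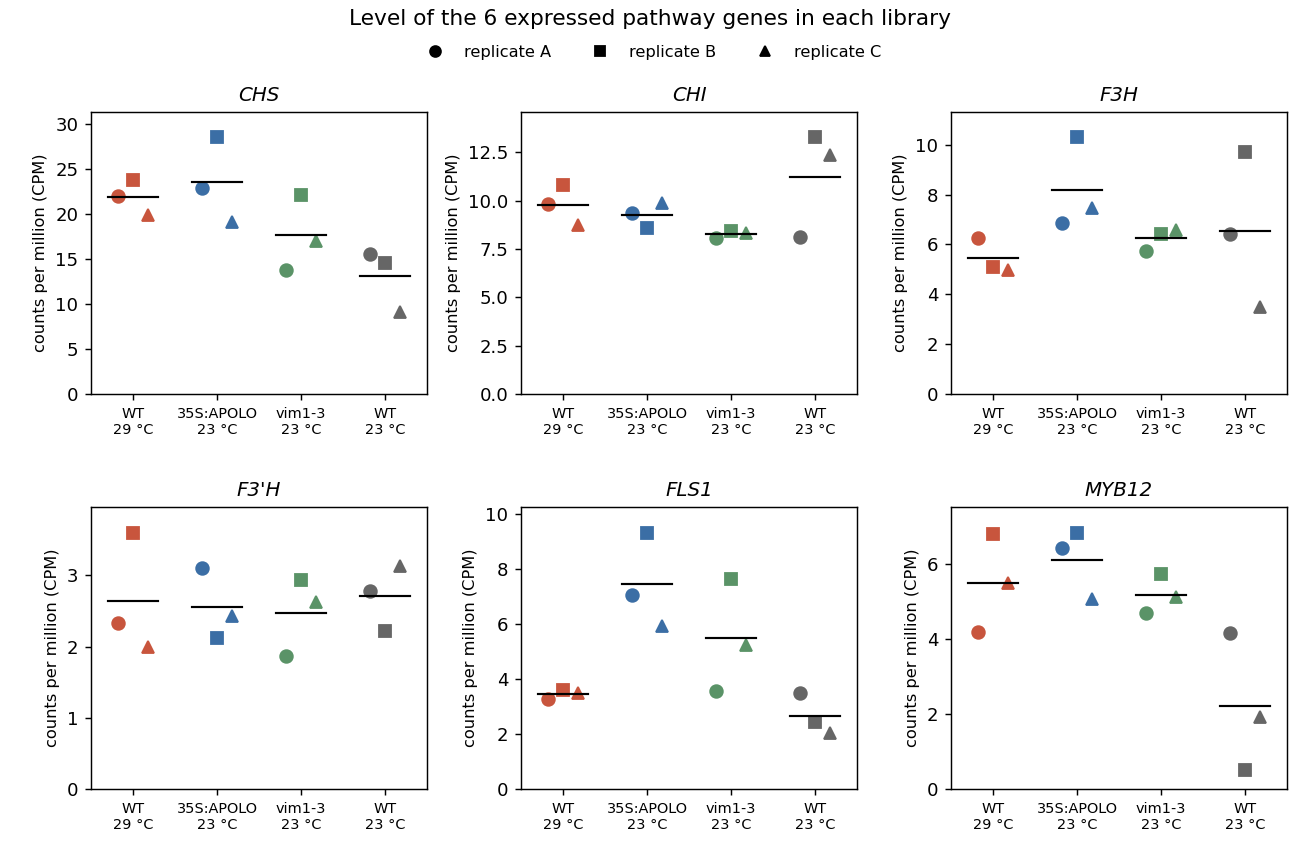
Levels of the 6 tested members in CPM (vertical axis) in each of the 12 libraries (points), by group from left to right (WT 29 °C, *35S:APOLO*, *vim1-3*, WT 23 °C), with a bar at each group mean. *FLS1* lies between 5.94 and 9.32 CPM in *35S:APOLO*, above the 2.04 to 3.50 CPM of WT 23 °C, and *MYB12* spreads widest in WT 23 °C, from 0.527 to 4.17 CPM.

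Per kilobase of exon, which allows levels to be compared between genes, *CHS* was the most abundant member in the seedlings of WT 29 °C, *35S:APOLO* and *vim1-3*, and *CHI* in WT 23 °C. *CHS* averaged 12.9, 13.8 and 10.4 CPM per kb in those groups, and 7.68 ± 2.03 CPM per kb in WT 23 °C (SD, n = 3). *CHI* followed with 8.81, 8.35 and 7.45 CPM per kb, against 10.1 ± 2.49 CPM per kb in WT 23 °C, so that the order of *CHS* and *CHI* in WT 23 °C lies within their spread. *F3H* came next in every group, at 3.61, 5.43 and 4.15 CPM per kb, and 4.34 in WT 23 °C. *FLS1* had 2.13, 4.60 and 3.39 CPM per kb, against 1.65 in WT 23 °C, and *MYB12* had 3.47, 3.86 and 3.27 CPM per kb, against 1.39 in WT 23 °C. The libraries of *F3H* and *MYB12* overlapped on this scale in WT 29 °C, and those of *F3H* and *FLS1* in *35S:APOLO* and *vim1-3*. *F3'H* was the lowest of the 6 or next to it, between 1.28 and 1.41 CPM per kb in all groups. Where these levels lie among those of all genes was not examined.

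*CHS*, the entry enzyme of flavonoid synthesis, had 22.0, 23.7 and 19.9 CPM in WT 29 °C, 22.9, 28.5 and 19.1 CPM in *35S:APOLO* and 13.8, 22.1 and 17.0 CPM in *vim1-3*, against 15.6, 14.5 and 9.13 CPM in WT 23 °C. Every WT 29 °C and *35S:APOLO* library lay above every WT 23 °C library, and *vim1-3* overlapped the control. The group means were 21.9 ± 1.94, 23.5 ± 4.73, 17.6 ± 4.18 and, for WT 23 °C, 13.1 ± 3.46 CPM (SD, n = 3 each). The log2 fold change was 0.72 (SE 0.22, 95% interval 0.24 to 1.19) in WT 29 °C (edgeR quasi-likelihood, BH-adjusted p = 0.024) and 0.82 (SE 0.22) in *35S:APOLO* (edgeR, BH-adjusted p = 0.0191). In *vim1-3* it was 0.39 (95% interval -0.08 to 0.87; edgeR, BH-adjusted p = 0.221). None of these passed the threshold of 0.01. DESeq2 with 12 libraries called *CHS* in WT 29 °C (adjusted p = 0.00626) and in *35S:APOLO* (adjusted p = 0.00184), where it called 24.2% and 15.6% of all genes. Against the library labelled WT 23 °C A alone the log2 fold changes were 0.49, 0.59 and 0.16 for WT 29 °C, *35S:APOLO* and *vim1-3*.

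*CHI*, which closes the chalcone ring, was the steadiest of the early genes relative to its level in *35S:APOLO* and *vim1-3*. It had 9.85, 10.8 and 8.76 CPM in WT 29 °C, 9.38, 8.59 and 9.87 CPM in *35S:APOLO* and 8.09, 8.42 and 8.32 CPM in *vim1-3*, against 8.10, 13.3 and 12.4 CPM in WT 23 °C. WT 23 °C B and C were the highest of all 12 libraries, and the library labelled WT 23 °C A was the second lowest. The coefficient of variation was 2.04% in *vim1-3* and 24.6% in WT 23 °C. Log2 fold changes were -0.19 in WT 29 °C, -0.27 in *35S:APOLO* and -0.43 (SE 0.17) in *vim1-3*, the last with an adjusted p of 0.0879 (edgeR, BH). Without the library labelled WT 23 °C A they were -0.40, -0.47 and -0.64, and the values for *35S:APOLO* (edgeR, BH-adjusted p = 0.00812) and *vim1-3* (edgeR, BH-adjusted p = 0.00102) passed. Against that library alone they were 0.27, 0.19 and 0.03, of opposite sign.

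*F3H*, the dioxygenase that makes dihydroflavonols, showed no difference from the control beyond its spread. Its levels were 6.24, 5.09 and 4.99 CPM in WT 29 °C, 6.84, 10.3 and 7.44 CPM in *35S:APOLO* and 5.75, 6.44 and 6.59 CPM in *vim1-3*, against 6.42, 9.72 and 3.48 CPM in WT 23 °C. The WT 23 °C libraries alone spanned most of this range, and every group overlapped them. Adjusted p-values against WT 23 °C were 0.426, 0.49 and 0.826 (edgeR quasi-likelihood, BH) with log2 fold changes of -0.31, 0.29 and -0.10.

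*F3'H*, the cytochrome P450 that adds the second hydroxyl group to the B ring, was flat at a low level. It had 2.33, 3.60 and 2.00 CPM in WT 29 °C, 3.10, 2.12 and 2.43 CPM in *35S:APOLO* and 1.87, 2.94 and 2.62 CPM in *vim1-3*, against 2.78, 2.22 and 3.12 CPM in WT 23 °C. The 4 groups overlapped throughout, and their means lay between 2.48 and 2.71 CPM. The log2 fold changes were -0.02, -0.08 and -0.13 (edgeR, BH-adjusted p = 0.957, 0.873 and 0.78).

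*FLS1*, the main flavonol synthase of Arabidopsis, was the member that differed most clearly. It had 7.05, 9.32 and 5.94 CPM in *35S:APOLO*, 3.58, 7.63 and 5.24 CPM in *vim1-3* and 3.27, 3.60 and 3.49 CPM in WT 29 °C, against 3.50, 2.46 and 2.04 CPM in WT 23 °C. All *35S:APOLO* and all *vim1-3* libraries lay above all WT 23 °C libraries, while WT 29 °C overlapped the control. For *vim1-3* A (95% Poisson interval 2.85 to 4.43 CPM) and the library labelled WT 23 °C A (2.74 to 4.40 CPM) the gap lay within counting error. The WT 29 °C libraries were as close to that control library. Group means were 7.44 ± 1.72 CPM in *35S:APOLO*, 5.48 ± 2.04 CPM in *vim1-3*, 3.45 ± 0.170 CPM in WT 29 °C and 2.67 ± 0.751 CPM in WT 23 °C (SD, n = 3 each). *FLS1* rose in *35S:APOLO* by a log2 fold change of 1.44 (SE 0.28, 95% interval 0.82 to 2.06; edgeR quasi-likelihood, BH-adjusted p = 0.00416). In *vim1-3* the log2 fold change was 0.97 (95% interval 0.35 to 1.60; edgeR, BH-adjusted p = 0.0336), and in WT 29 °C 0.33 (95% interval -0.30 to 0.97; edgeR, BH-adjusted p = 0.406).

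The call of *FLS1* in *35S:APOLO* depended on single libraries. It was lost without WT 23 °C B (edgeR, BH-adjusted p = 0.0141), without WT 23 °C C (0.0184), without *35S:APOLO* A (0.0137) and without *35S:APOLO* B (0.0235), and when only the 6 libraries compared were fitted (0.0344). The log2 fold change nevertheless lay between 1.24 and 1.69 with any 1 library left out. Without the library labelled WT 23 °C A it was 1.69 in *35S:APOLO* and 1.21 in *vim1-3*, both called (edgeR, BH-adjusted p = 0.000384 and 0.0062), and against that library alone it was 1.09 in *35S:APOLO* (edgeR, BH-adjusted p = 0.0623). DESeq2 kept the call in *35S:APOLO* with 12 libraries (adjusted p = 5.22e-05) and with the 6 compared (adjusted p = 0.000347).

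**Figure D2:**
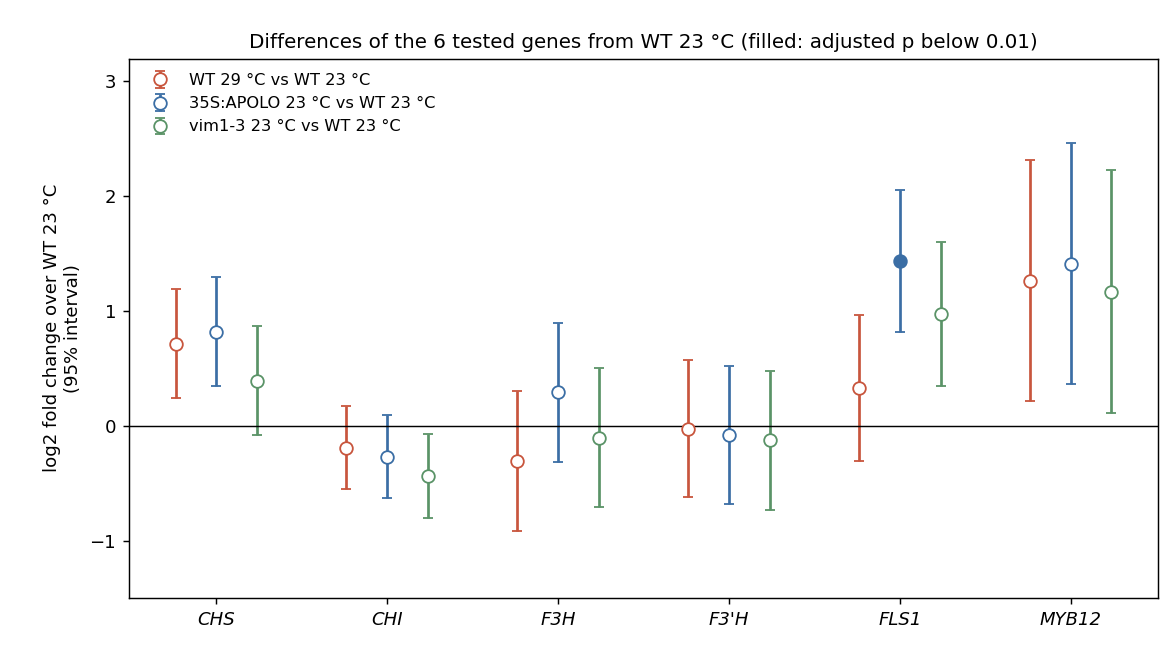
Log2 fold changes against WT 23 °C (axis of values) of the 6 tested members in WT 29 °C, *35S:APOLO* and *vim1-3*, with 95% intervals as lines; a filled symbol marks an adjusted p below 0.01. Only *FLS1* in *35S:APOLO* is filled, at 1.44, and the interval of *MYB12* is the widest in each comparison (for WT 29 °C from 0.21 to 2.32).

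*MYB12*, the activator of *CHS*, *F3H* and *FLS1* in roots and young seedlings, was higher in each library of the other groups than in any WT 23 °C library. It had 4.20, 6.81 and 5.49 CPM in WT 29 °C, 6.42, 6.83 and 5.06 CPM in *35S:APOLO* and 4.69, 5.72 and 5.11 CPM in *vim1-3*, against 4.17, 0.527 and 1.92 CPM in WT 23 °C. The 3 control libraries held 87, 9 and 16 reads, so that the library labelled WT 23 °C A lay just under the lowest of the other groups and B and C far below it. The log2 fold changes of 1.27 in WT 29 °C (SE 0.48), 1.41 in *35S:APOLO* and 1.17 in *vim1-3* did not pass (edgeR quasi-likelihood, BH-adjusted p = 0.0611, 0.0552 and 0.109). Without the library labelled WT 23 °C A they were 2.41, 2.56 and 2.31 and all passed (edgeR, BH-adjusted p = 9.31e-05, 5.94e-05 and 0.000204). Against that library alone they were 0.40, 0.54 and 0.30, with adjusted p-values of 0.274, 0.217 and 0.506 (edgeR, BH).

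The level of *MYB12* moved with the summed level of the root genes across the WT 23 °C libraries, though not with *SHR* and *SCR* of that list. Both were highest in A (414 CPM summed over 7 root genes), lowest in B (71.2 CPM) and between them in C (191 CPM). *FLS5*, a further flavonol synthase gene that was picked after its values had been seen, stood in the same order at 119, 15.6 and 82.4 CPM, against 134 to 183 CPM in the other groups. Within the other groups this order was not kept throughout. In *vim1-3* it was reversed, with root sums of 652, 475 and 592 CPM beside *MYB12* at 4.69, 5.72 and 5.11 CPM. *FLS5* had 143, 183 and 156 CPM there. In *35S:APOLO* the lowest root sum (B, 735.5 CPM) stood beside the highest *MYB12* (6.83 CPM) and *FLS5* (147 CPM). In WT 29 °C the highest root sum (B, 906 CPM) stood beside the highest *MYB12* (6.81 CPM) and *FLS5* (179 CPM). The part of root RNA in the levels of *MYB12* was not tested.

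**Figure D3:**
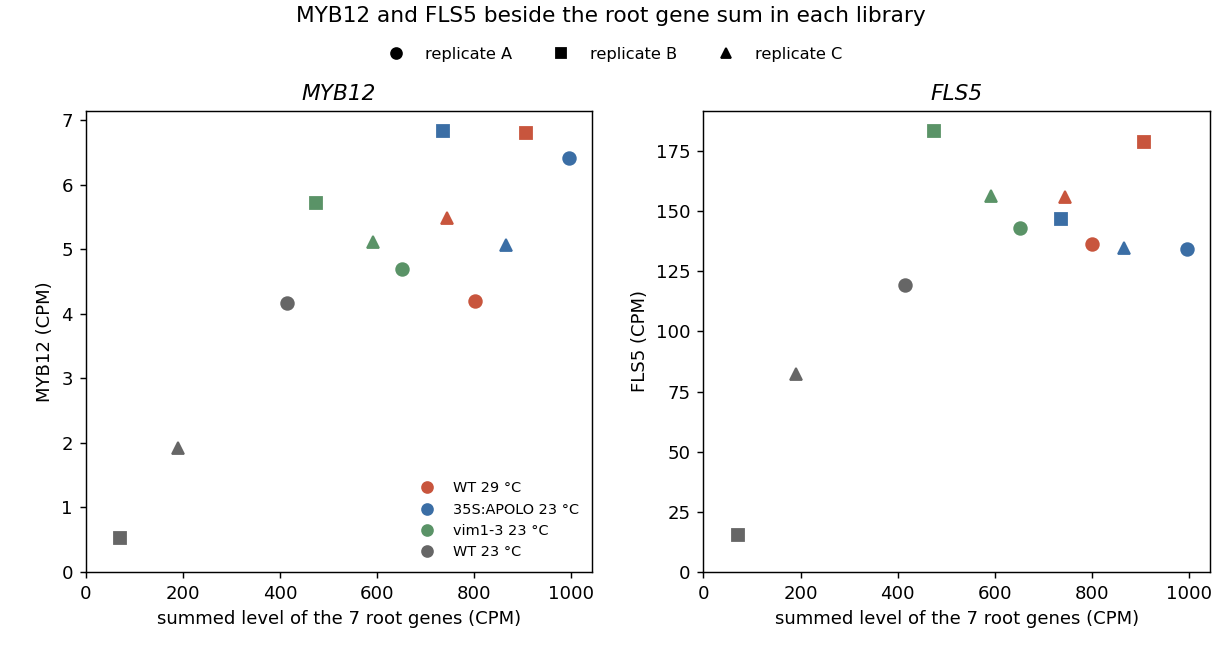
Levels of *MYB12* and *FLS5* in CPM (vertical axes) against the summed CPM of 7 root genes (horizontal axis), 1 point per library, coloured by group. WT 23 °C B, at 71.2 CPM of root genes, has the lowest level of both genes, 0.527 CPM of *MYB12* and 15.6 CPM of *FLS5*.

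The late anthocyanin genes *DFR*, *LDOX* and *UGT75C1* and the regulator *PAP1* were nearly unread except in 1 control library. *DFR*, the reductase that takes dihydroflavonols towards anthocyanins, had 0, 0 and 0 reads in WT 29 °C, 1, 1 and 0 in *35S:APOLO* and 1, 0 and 0 in *vim1-3*, against 1, 55 and 0 in WT 23 °C. *LDOX*, which forms the coloured anthocyanidins, had 1, 1 and 0 reads in WT 29 °C, 6, 3 and 5 in *35S:APOLO* and 0, 2 and 1 in *vim1-3*, against 4, 65 and 1 in WT 23 °C. In both genes WT 23 °C B stood alone, and the remaining control libraries were among the others.

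*UGT75C1*, an anthocyanin 5-O-glucosyltransferase, had 1, 3 and 1 reads in WT 29 °C, 3, 1 and 7 in *35S:APOLO* and 2, 3 and 3 in *vim1-3*, against 0, 71 and 6 in WT 23 °C. *PAP1*, whose activation turns seedlings purple, had 3, 2 and 3 reads in WT 29 °C, 0, 2 and 0 in *35S:APOLO* and 0, 0 and 2 in *vim1-3*, against 1, 111 and 17 in WT 23 °C. *PAP1* was thus the only one of these genes that was also read more than 7 times in another library, WT 23 °C C (2.04 CPM). In WT 23 °C B the levels were 3.22 CPM for *DFR* (95% Poisson interval 2.43 to 4.19), 3.81 for *LDOX* (2.94 to 4.85), 4.16 for *UGT75C1* (3.25 to 5.24) and 6.50 for *PAP1* (5.35 to 7.83). Of the 44 values of these members in the other 11 libraries, 38 were at or under 3 reads. AT4G14100, which overlaps *UGT75C1*, had 256 reads in WT 23 °C B and 127 to 473 in the others, so that it did not stand out there.

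Of the genes listed for anthocyanin formation, 7 were picked because many of their few reads were also in WT 23 °C B. *TT19*, the glutathione transferase that carries anthocyanins to the vacuole, had 96 reads there and 25 in the other 11 libraries together, and *UGT79B1*, a xylosyltransferase of anthocyanins, 43 and 11. The acyltransferase genes *5MAT*, *3AT1* and *3AT2* had 27, 18 and 12 reads in WT 23 °C B and 9, 5 and 6 in the other 11 libraries together. *PAP2*, a close relative of *PAP1*, had 14 reads there and 12 in the others, a share of 53.8%, and *TT8*, the bHLH partner, 11 and 13, a share of 45.8%. Over the 4 members and these 7 genes, 523 reads were in WT 23 °C B and 169 in the other 11 libraries, which puts 75.6% of them in 1 library. Since the 7 genes were picked by these counts, the share is a description only. *BGLU10* and *SCPL10*, of the same list, had 17.6% and 13.6% of their reads in WT 23 °C B. *SCPL10*, an acyltransferase gene, had 52 to 143 reads in WT 29 °C, 21 to 47 in *35S:APOLO* and 15 to 27 in *vim1-3*, against 20, 79 and 23 in WT 23 °C. WT 23 °C B was also the library with the highest jasmonate sum (464 CPM) and the lowest root sum (71.2 CPM). The part of either in these counts was not tested.

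**Figure D4:**
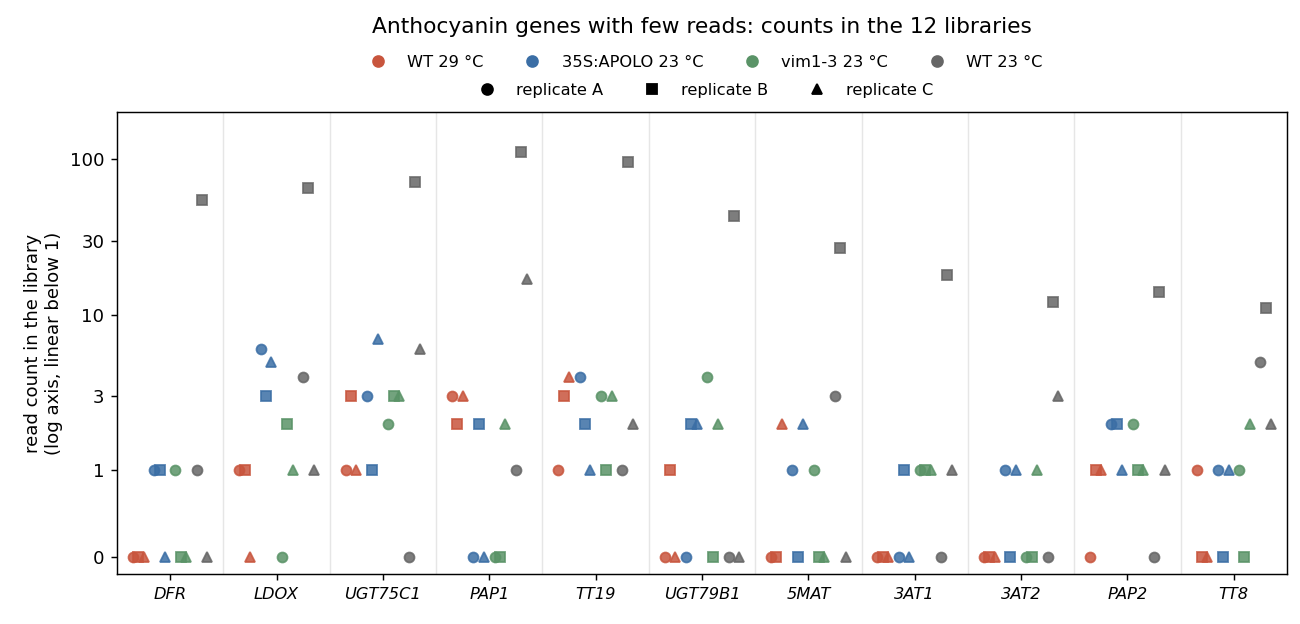
Read counts (axis with a linear part near 0 and a log scale above it) of *DFR*, *LDOX*, *UGT75C1*, *PAP1* and 7 other anthocyanin genes in each of the 12 libraries, grouped as WT 29 °C, *35S:APOLO*, *vim1-3* and WT 23 °C. WT 23 °C B carries 11 to 111 reads of each gene, and no other library has more than 17 of any.

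These 4 genes were not tested in the fit above. Fitted without a filter over 26500 genes, *DFR* (-7.36), *LDOX* (-5.08), *UGT75C1* (-4.11) and *PAP1* (-4.27) all had negative log2 fold changes in WT 29 °C, with adjusted p-values of 0.0541, 0.0215, 0.0457 and 0.0289 (edgeR, BH). None was called there in any comparison with WT 23 °C, and these fitted sizes rest on WT 23 °C B and depend on the prior count. DESeq2 with 12 libraries called *PAP1* lower in WT 29 °C, *35S:APOLO* and *vim1-3* (adjusted p = 0.0032, 0.00066 and 0.000504) and *UGT75C1* in WT 29 °C (adjusted p = 0.00797), where it called 24.2%, 15.6% and 13.2% of all genes. WT 23 °C B held 78.7% of all reads of *PAP1* and 70.3% of those of *UGT75C1*. These DESeq2 calls therefore rest on reads in the control and are read as no result.

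**Figure D5:**
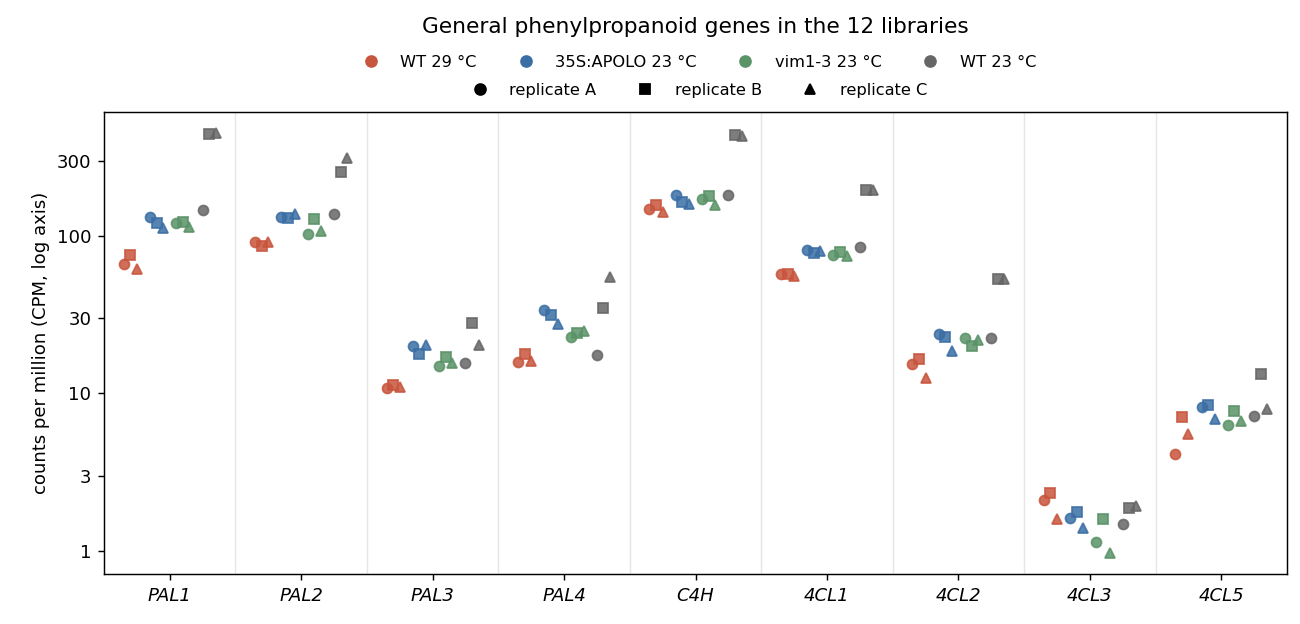
Levels of 9 general phenylpropanoid genes in CPM (log axis) in each library, by group (WT 29 °C, *35S:APOLO*, *vim1-3*, WT 23 °C). For *PAL1* the WT 23 °C libraries B and C reach 443 and 446 CPM, and the library labelled WT 23 °C A has 146 CPM, next to the 112 to 132 CPM of *35S:APOLO*.

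Upstream of *CHS*, the general phenylpropanoid list (4 *PAL* genes, *C4H* and 4 *4CL* genes, which make coumaroyl-CoA for flavonoids, lignin and other phenolics) had negative median log2 fold changes in all 3 comparisons with WT 23 °C. Of its 9 genes 6 fell and 0 rose in WT 29 °C, in *35S:APOLO* 1 fell and 0 rose, and in *vim1-3* 0 of 9 passed (edgeR). Of all tested genes 12.8%, 7.68% and 4.45% fell in these comparisons. In *vim1-3* 6 of the list had an unadjusted p below 0.05, and DESeq2 with 12 libraries called 5 lower, beside 13.2% of all genes called. The medians were -1.22, -0.82 and -0.99, and those of WT 29 °C, *35S:APOLO* and *vim1-3* against the library labelled WT 23 °C A alone -0.50, -0.04 and -0.11. *PAL1*, the leading phenylalanine ammonia-lyase gene, had 66.2, 76.0 and 61.8 CPM in WT 29 °C, 132, 120 and 112 CPM in *35S:APOLO* and 120, 122 and 114 CPM in *vim1-3*, against 146, 443 and 446 CPM in WT 23 °C. No library of the other groups reached the WT 23 °C libraries, of which B and C lay far above A. *PAL1* fell by 2.34 on the log2 scale in WT 29 °C (edgeR, BH-adjusted p = 0.000577) and by 1.51 in *35S:APOLO* (edgeR, BH-adjusted p = 0.00989). The call in *35S:APOLO* was lost without WT 23 °C B (edgeR, BH-adjusted p = 0.0404), without WT 23 °C C (0.0368) and with any single library of the other groups left out, and 0 of 9 genes passed in each of these fits without a control library. In *vim1-3* its log2 fold change was -1.54 (edgeR, BH-adjusted p = 0.0118).

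*4CL2* and *4CL1*, the coumarate-CoA ligases with the largest changes in the list, fell by 1.53 and 1.48 on the log2 scale in WT 29 °C (edgeR, BH-adjusted p = 0.00171 and 0.00106), and the call of *4CL2* was lost without WT 29 °C C (0.0103). The counts of the list turned on the control libraries. Without the library labelled WT 23 °C A, 8 genes in WT 29 °C, 5 in *35S:APOLO* and 7 in *vim1-3* fell, in a fit that called 34.1%, 29.3% and 26.8% of all genes. Without WT 23 °C B, and likewise without WT 23 °C C, 5 fell in WT 29 °C and 0 in *35S:APOLO* and *vim1-3*. The fit without B called 17.4%, 7.09% and 3.66% of all genes in these comparisons, and that without C 15%, 5.1% and 2.33%. Against the library labelled WT 23 °C A alone 5 fell in WT 29 °C, 1 (*PAL4*) rose in *35S:APOLO* and 0 passed in *vim1-3*. With edgeR restricted to the 6 libraries of each comparison 0 of 9 passed in all 3, beside 5.01%, 0.00994% and 0.00494% of all genes. Warm WT seedlings had less *PAL1* than the library labelled WT 23 °C A too, with a log2 fold change of -1.11 (edgeR, BH-adjusted p = 1.76e-06), whereas *35S:APOLO* had -0.27 (edgeR, BH-adjusted p = 0.172).

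Around *FLS1*, the list of flavonol synthesis and glycosylation held 9 genes, 8 of them tested. Of these, 1 rose and 1 fell in WT 29 °C, in *35S:APOLO* 0 passed in edgeR, and in *vim1-3* 1 fell. Of all tested genes 7.88% rose and 12.8% fell in WT 29 °C, and 4.45% fell in *vim1-3*. In *35S:APOLO* 2 genes (*FLS3* and *UGT73C6*) had an unadjusted p below 0.05, and DESeq2 with 12 libraries called 1 of them, *FLS3*, and 15.6% of all genes. The median log2 fold changes of the list were -0.22, -0.01 and -0.24. *FLS3*, a flavonol synthase paralogue, rose by a log2 fold change of 0.89 in WT 29 °C (edgeR, BH-adjusted p = 0.00554), a call that was lost without WT 23 °C C (0.0121), without WT 29 °C A (0.0175) or B (0.0265), and against the library labelled WT 23 °C A alone (0.0243). *UGT73C6*, a flavonol 7-O-glucosyltransferase gene, fell by 1.43 on the log2 scale there (edgeR, BH-adjusted p = 0.000275). *UGT78D1*, the flavonol 3-O-rhamnosyltransferase gene, had 7.03, 6.91 and 7.73 CPM in *vim1-3*, against 10.7, 15.3 and 13.1 CPM in WT 23 °C, with no overlap. It fell by 0.84 on the log2 scale (edgeR, BH-adjusted p = 0.00264), but did not pass with any single *vim1-3* library left out (0.0144 to 0.0178) or against the library labelled WT 23 °C A alone (0.0252). *CHIL*, a chalcone isomerase-like gene whose protein raises flavonol output, had log2 fold changes of -0.49, 0.12 and -0.56 in WT 29 °C, *35S:APOLO* and *vim1-3* (edgeR, BH-adjusted p = 0.0136, 0.573 and 0.014). *UGT78D2*, which adds glucose at position 3 of flavonols and anthocyanidins, had -0.18, 0.12 and -0.09 and passed in no comparison with the control.

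Of the 7 genes for decoration and transport of anthocyanins, 2 were tested, *BGLU10* and *SCPL10*. Of these, 1 fell in WT 29 °C and 1 in *35S:APOLO*, where 12.8% and 7.68% of all tested genes fell. *BGLU10*, an anthocyanin glucosyltransferase gene of the glycosyl hydrolase family, had 15.4, 13.7 and 15.9 CPM in WT 29 °C and 18.8, 22.1 and 22.8 CPM in *35S:APOLO*, against 32.6, 65.0 and 56.8 CPM in WT 23 °C. It was below every control library in both groups and fell by 1.77 on the log2 scale in WT 29 °C (edgeR, BH-adjusted p = 0.000197) and by 1.27 in *35S:APOLO* (edgeR, BH-adjusted p = 0.00265). The call in *35S:APOLO* was lost without WT 23 °C C (edgeR, BH-adjusted p = 0.0116), with any single *35S:APOLO* library left out (0.0119 to 0.0154) and against the library labelled WT 23 °C A alone (log2 fold change -0.62, 0.0182). In *vim1-3* 0 of the 2 passed, and *BGLU10* had an unadjusted p below 0.05 there. The proanthocyanidin branch, which colours the seed coat, was read little: *TT12* had 0 reads in all libraries, *BAN* 2 reads in 1 library, and 0 of the 2 tested genes of 4 passed in edgeR or in DESeq2 with 12 libraries. Both, *AHA10* and *TT10*, had an unadjusted p below 0.05 in WT 29 °C and in *vim1-3*, and neither in *35S:APOLO*.

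Among the regulators, 5 of 12 activators were tested (*TTG1*, *HY5*, *HYH*, *GL3* and *EGL3*). Of these, 1 rose and 1 fell in WT 29 °C, and 1 rose in each of *35S:APOLO* and *vim1-3*. Of all tested genes 7.88% rose and 12.8% fell in WT 29 °C, 2.6% rose in *35S:APOLO* and 2.19% rose in *vim1-3*. An unadjusted p below 0.05 was also found for *TTG1* in WT 29 °C, *GL3* and *EGL3* in *35S:APOLO*, and *GL3* and *HYH* in *vim1-3* (edgeR). *MYB11* and *MYB111*, the relatives of *MYB12*, had at most 5 and 12 reads in any library and were not tested, nor were *PAP2* and *TT8*. *TTG1*, the WD40 partner of the anthocyanin MYB complex, was read in every library at 38.2 to 57.0 CPM. *HY5*, the light-signalling bZIP factor that activates *MYB12* and *CHS*, had 13.4, 16.7 and 14.6 CPM in WT 29 °C, 17.0, 16.9 and 14.4 CPM in *35S:APOLO* and 15.8, 16.5 and 16.6 CPM in *vim1-3*, against 11.5, 6.03 and 8.77 CPM in WT 23 °C. No group overlapped the control, and the library labelled WT 23 °C A was again the control nearest to the others. *HY5* rose by log2 fold changes of 0.76, 0.87 and 0.89 in WT 29 °C, *35S:APOLO* and *vim1-3* (edgeR, BH-adjusted p = 0.0078, 0.0064 and 0.00803). Against the library labelled WT 23 °C A alone they were 0.37, 0.48 and 0.50 and did not pass (edgeR, BH-adjusted p = 0.0758, 0.0517 and 0.0406). Without WT 23 °C C all 3 calls of *HY5* were lost (edgeR, BH-adjusted p = 0.0232, 0.0223 and 0.0255), and without WT 23 °C B those in WT 29 °C (0.0143) and *vim1-3* (0.0122). Each of the 3 was also lost with any single library of its own WT 29 °C, *35S:APOLO* or *vim1-3* group left out (0.0138 to 0.0358). *HYH*, its homologue, went the other way in warmth, with 5.31, 5.37 and 5.67 CPM in WT 29 °C, against 11.1, 11.1 and 8.89 CPM in WT 23 °C. It fell by 0.94 on the log2 scale (edgeR, BH-adjusted p = 0.000774).

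All 10 repressors were tested. There 1 rose and 1 fell in WT 29 °C, in *35S:APOLO* 1 rose and in *vim1-3* 3 rose. Of all tested genes 7.88% rose and 12.8% fell in WT 29 °C, 2.6% rose in *35S:APOLO* and 2.19% rose in *vim1-3*. *CPC*, the small MYB protein that competes with PAP1 for bHLH partners and is best known from root hair patterning, rose by 1.303, 1.289 and 1.287 on the log2 scale in WT 29 °C, *35S:APOLO* and *vim1-3* (edgeR, BH-adjusted p = 0.00277, 0.00544 and 0.00778). Without WT 23 °C C all 3 calls of *CPC* were lost (edgeR, BH-adjusted p = 0.0102, 0.0201 and 0.0252), without WT 23 °C B those in *35S:APOLO* (0.018) and *vim1-3* (0.024), and against the library labelled WT 23 °C A alone all 3 again (0.0431, 0.0916 and 0.0859). The calls of *CPC* in *35S:APOLO* and *vim1-3* were also lost with any single library of those groups left out, and that in WT 29 °C without WT 29 °C A (0.0116). Its level in WT 23 °C was 1.49, 0.703 and 0.961 CPM, in the order of the root sums. *MYB4*, a repressor of phenylpropanoid genes, had 8.92, 7.86 and 6.67 CPM in WT 29 °C, against 15.2, 13.1 and 15.9 CPM in WT 23 °C, and fell by 0.91 on the log2 scale (edgeR, BH-adjusted p = 0.000333). *LBD38* and *LBD37*, nitrate-responsive repressors of *PAP1*, rose by 0.62 and 0.36 in *vim1-3* (edgeR, BH-adjusted p = 0.00251 and 0.00893). The call of *LBD37* was lost without WT 23 °C B (edgeR, BH-adjusted p = 0.0233) and without C (0.0214), and both calls were lost with any single *vim1-3* library left out and against the library labelled WT 23 °C A alone (*LBD38* 0.0147, *LBD37* 0.0251).

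*MYBL2*, an inhibitor of the MYB and bHLH complex, was the most abundant gene of the list by reads. It had 188, 190 and 192 CPM in WT 29 °C, 190, 153 and 198 CPM in *35S:APOLO* and 303, 324 and 307 CPM in *vim1-3*, against 220, 225 and 259 CPM in WT 23 °C. The WT 29 °C and *35S:APOLO* libraries lay below, and the *vim1-3* libraries above, all controls. None of the 3 contrasts with WT 23 °C passed, with log2 fold changes of -0.31, -0.38 and 0.41 (edgeR, BH-adjusted p = 0.0354, 0.0198 and 0.0173). Between *35S:APOLO* and *vim1-3* the log2 fold change was -0.79 (edgeR, BH-adjusted p = 0.0011).

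The groups other than WT 23 °C were also compared with each other. The control is not part of these contrasts, but it stayed in the fit and so in its filter, scaling and estimate of spread. With only the 6 libraries compared, edgeR called 10.7% of all genes in *35S:APOLO* against *vim1-3*. It called 17.1% in WT 29 °C against *35S:APOLO* and 29.9% in WT 29 °C against *vim1-3*. In *35S:APOLO* against *vim1-3*, edgeR called 0 of 6 members and 1.87% of all tested genes, and 0 members had an unadjusted p below 0.05. DESeq2 with 12 libraries also called 0 members there, beside 5.24% of all genes. *FLS1* differed by a log2 fold change of 0.46 (95% interval -0.12 to 1.04; edgeR, BH-adjusted p = 0.367) and *CHS* by 0.43 (95% interval -0.04 to 0.89; edgeR, BH-adjusted p = 0.292), intervals that include both no difference and a doubling or nearly so. In WT 29 °C against *35S:APOLO*, edgeR called 0 of 6 members and 8.17% of all tested genes, and 1 member, *FLS1*, had an unadjusted p below 0.05. All 3 WT 29 °C libraries had less *FLS1* than any *35S:APOLO* library, with a log2 fold change of -1.11 (95% interval -1.70 to -0.51; edgeR, BH-adjusted p = 0.0158). With only these 6 libraries in the fit the value was again -1.11 and was called (edgeR, BH-adjusted p = 0.000439), as it was in DESeq2 with 12 libraries (adjusted p = 0.00252). DESeq2 with 12 libraries called 12% of all genes in this comparison.

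*F3H* was likewise lower in every WT 29 °C library than in any *35S:APOLO* library, at a log2 fold change of -0.60 (95% interval -1.20 to 0.01; edgeR, BH-adjusted p = 0.164). In WT 29 °C against *vim1-3*, edgeR called 0 of 6 members and 13.6% of all tested genes, and 1 member (*FLS1*) had an unadjusted p below 0.05. DESeq2 with 12 libraries called 0 members there, beside 17.3% of all genes. *FLS1* differed there by -0.64 (edgeR, BH-adjusted p = 0.108), and *CHI*, whose 3 WT 29 °C libraries all lay above those of *vim1-3*, by 0.24 (edgeR, BH-adjusted p = 0.315).

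Averaged over the 8 enzymes after standardising each across the libraries, the profile was most like that of *COL2* (Pearson r = 0.89 over 12 libraries, 0.79 without WT 23 °C B), a CONSTANS-like gene, and *PHR1* (0.87 and 0.74), a DNA photolyase gene. *OPS* (0.87 and 0.72), AT3G27400 (0.86 and 0.75) and *PP2-B1* (0.83 and 0.62) followed. These are descriptions over libraries that fall into 4 groups and share WT 23 °C B as the library with the most late-gene reads.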

How the data were processed

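RNA-Seq of 4-day-old whole seedlings (stranded mRNA libraries, independent biological replicates per the study's methods) gave 1 count table per library. After trimming (Trimmomatic 0.36), depletion of rRNA reads (SortMeRNA) and alignment to TAIR10 (STAR 2.5.2b), the authors deposited raw read counts per Araport11 gene, made with featureCounts of Subread 1.6.5. Group, temperature and replicate letter are those of the labels.

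Tests were run with edgeR 4.0.16 and limma 3.58.1 (R 4.3.3): filterByExpr by group, TMM factors, robust glmQLFit with 1 coefficient per group, and glmQLFTest for 6 comparisons. p-values were adjusted over all 20664 genes tested, which gave 6 of the 10 members, with a threshold of 0.01. CPM uses TMM effective sizes, and CPM per kb divides by exon length. Upstream sequences, gene models and 37051 matched symbols come from RefSeq for TAIR10.1, and figures from Python 3.11.15 with matplotlib 3.10.9. Scripts were tested on simulated data.

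The members, pathway lists and tests were chosen with earlier results of these data known. Besides the members, the text names, in each list, up to 3 called genes with the largest change per comparison with WT 23 °C, *MYB11*, *MYB111*, *PAP2*, *TT8*, *MYBL2*, *HY5*, *TT19*, *UGT78D2*, *CHIL* and *PAL1* in any case, and the 5 genes most like the enzyme profile. *FLS5*, *SCPL10*, *TTG1*, *GL3*, *EGL3*, *LBD37*/*LBD38* in other comparisons and the sparse anthocyanin genes were named after their values had been seen.

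Other settings tried were the scaling (RLE or upper quartile), the tool (DESeq2 1.42.0 with 12 libraries or with 6), edgeR restricted to the 6 libraries of a comparison, 2 other filters (none, or 10 counts in all libraries), 2 other thresholds (0.05, or a change of at least 2-fold), a block for the replicate letter, leaving out single libraries, and the library labelled WT 23 °C A as the only control.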

Additional observations from a re-analysis of the deposited data

How the results depend on the processing

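Only *FLS1* in *35S:APOLO* against WT 23 °C was called among the members, and the number of members called moved with several choices. In WT 29 °C against WT 23 °C it was 0, and 1 with a threshold of 0.05 (*CHS*), 3 in DESeq2 on 12 libraries (*CHS*, *UGT75C1*, *PAP1*), 2 in DESeq2 on the 6 libraries (*LDOX*, *PAP1*), and 0 to 3 with 1 library left out. In *35S:APOLO* it was 1, and 2 with the threshold of 0.05 (*CHS*, *FLS1*), 3 in DESeq2 on 12 libraries (with *PAP1*), 0 in edgeR on the 6 libraries, 0 against the library labelled WT 23 °C A alone, and 0 to 5 with 1 library left out. In *vim1-3* it was 0, and 1 with the threshold of 0.05 (*FLS1*), 1 in DESeq2 on 12 and 1 on 6 libraries (*PAP1*), and 0 to 5 with 1 library left out. In WT 29 °C against *35S:APOLO* it was 0, and 1 (*FLS1*) with the threshold of 0.05, in DESeq2 on 12 or 6 libraries and in edgeR on the 6 libraries, and 0 to 1 with 1 library left out. In *35S:APOLO* or WT 29 °C against *vim1-3* it was 0 under every alternative run. The upper numbers of 3 and 5 came without the library labelled WT 23 °C A, when *MYB12* passed in all 3 comparisons with WT 23 °C, and *CHI* and *FLS1* in *35S:APOLO* and *vim1-3*. The remaining calls there, *PAP1* and *UGT75C1*, are read as no result, because these genes entered the fit only through their reads in the control. The DESeq2 calls of *LDOX*, *UGT75C1* and *PAP1* rest on reads in the control as well and are likewise read as no result. DESeq2 on 12 libraries called 24.2%, 15.6% and 13.2% of all genes in WT 29 °C, *35S:APOLO* and *vim1-3*. The cause was not tested.

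With the replicate letter as a block (replicate block) 1 member was called in WT 29 °C (*CHS*) and 2 in *35S:APOLO* (*CHS*, *FLS1*). The calls of *HY5* in all 3 comparisons with WT 23 °C, of *PAL1* in *35S:APOLO*, of *CPC* in *35S:APOLO* and *vim1-3*, and of *LBD37* in *vim1-3* were lost with it. Libraries of the same letter did not deviate together, with correlations of -0.222 to 0.187 over 18 pairs, and 5 libraries correlated best with their own letter.

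Of 1338 values of 65 log2 fold changes under the alternatives, 1140 kept their sign and their side of the threshold, 139 were no longer past it, 26 came past it and 33 changed sign, none of them called at first. Against the library labelled WT 23 °C A alone, assumed to vary like the other groups, the sign turned for *CHI* in WT 29 °C (0.27), *35S:APOLO* (0.194) and *vim1-3* (0.029), *FLS1* in WT 29 °C (-0.02) and *UGT78D2* in WT 29 °C (0.027) and *vim1-3* (0.113). For *F3'H* it turned with upper-quartile factors in WT 29 °C (0.075) and *35S:APOLO* (0.014), and in WT 29 °C without a filter (0) and with at least 10 counts in every library (0.013). Upper-quartile factors moved the median of all genes in WT 29 °C to 0.09, against -0.01.

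With 1 library left out, log2 fold changes of both signs were found against WT 23 °C for *F3H* in WT 29 °C (-0.567 to 0.065) and *vim1-3* (-0.364 to 0.269), for *F3'H* in WT 29 °C (-0.31 to 0.148), *35S:APOLO* (-0.207 to 0.039) and *vim1-3* (-0.257 to 0.047), and for *UGT78D2* in WT 29 °C (-0.304 to 0.084), *35S:APOLO* (-0.006 to 0.382) and *vim1-3* (-0.213 to 0.174). The same held for *F3'H* in *35S:APOLO* against *vim1-3* (-0.126 to 0.173), for *CHS* (-0.243 to 0.059), *F3'H* (-0.232 to 0.227) and *MYB12* (-0.327 to 0.009) in WT 29 °C against *35S:APOLO*, and for *F3'H* (-0.183 to 0.275) and *MYB12* (-0.084 to 0.263) in WT 29 °C against *vim1-3*.

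Over all genes, edgeR called 4264 genes in WT 29 °C, 2126 in *35S:APOLO* and 1371 in *vim1-3* against WT 23 °C. It called 1009, 2 and 1 on the 6 libraries, 7135, 6133 and 5616 without the library labelled WT 23 °C A, and 3564, 1624 and 704 with the replicate block, and DESeq2 on 12 libraries called 5302, 3430 and 2893. In the other libraries the 3 counts taken as a floor leave *DFR*, *LDOX*, *UGT75C1* and *PAP1* unresolved.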
